A study of Mus musculus with 6 samples.

Results

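The iron-dependent 2-oxoglutarate dioxygenases are enzymes that hold a ferrous iron in the active site and use 2-oxoglutarate and oxygen to hydroxylate a substrate. The list taken here had 37 mouse genes, matched by symbol and grouped for their known chemistry: DNA, histone and RNA demethylases, collagen hydroxylases and a few other hydroxylases. Of the 35275 genes in the table, 36 were members of the list. Tmlhe, which starts carnitine synthesis from trimethyllysine, had no row under its name or identifier and was not analysed here. A member below 0.5 FPKM (fragments per kilobase of gene and 1000000 reads) in 4 or more samples counted as not measured, which held for Tet1 (0.0661 to 0.0930 FPKM) and P4ha3, and left 34 measured members.

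RNA was sequenced from the epididymal fat depot of male C57BL/6 mice. Of 6 samples, the 3 in the control group were Tfrcfl/fl, whose alleles of the transferrin receptor gene Tfrc carry loxP sites, and the 3 knockout samples were TfrcAKO. TfrcAKO is known as an adipocyte-specific deletion, but the labels neither spell the abbreviation out nor name the Cre driver. Both groups ate a 60% fat diet for 10 weeks from the age of 2 months, with tissue taken at 4.5 months, so no sample stands for a lean mouse. Whether the samples of a group come from separate animals is not stated in the labels, and the p-values measure the spread among the samples as given. The comparison asked which mRNAs of the depot differ when adipocytes lack the receptor that brings transferrin-bound iron into the cell.

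These enzymes share a fold in which a His-x-Asp or His-x-Glu pair and a distant second histidine grip the iron. In the TET and JmjC families the reaction removes methyl groups from DNA or histones, in FTO and many ALKBH proteins it removes them from RNA or DNA bases, and in collagen hydroxylases it adds the hydroxyl groups that stabilise and crosslink the triple helix. The mRNA values below say how much template for each enzyme was present, and nothing about iron loading or activity of the proteins.

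The coding sequence around the His-x-Asp or His-x-Glu pair is shown for 7 members whose mRNA differed between the groups and for the other Plod and P4ha genes set beside them, because this pair is where the proteins bind the metal. Each stretch has 45 bases from the GENCODE M21 coding transcript on GRCm38, and the capitals mark the codons of the histidine, the residue after it and the acidic residue. Each was the only match to its family's pattern in the coding sequence searched.
Tet3: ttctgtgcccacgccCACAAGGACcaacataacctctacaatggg
Kdm4b: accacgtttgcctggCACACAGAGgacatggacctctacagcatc
Kdm6b: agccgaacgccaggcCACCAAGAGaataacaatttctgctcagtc
Kdm7a: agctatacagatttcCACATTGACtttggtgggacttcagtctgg
Phf8: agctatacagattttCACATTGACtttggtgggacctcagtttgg
Alkbh2: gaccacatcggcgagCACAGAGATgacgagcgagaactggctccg
Plod1: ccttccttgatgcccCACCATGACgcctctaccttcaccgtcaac
Plod2: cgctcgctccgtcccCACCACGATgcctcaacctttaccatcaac
Plod3: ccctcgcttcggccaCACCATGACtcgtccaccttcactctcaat
P4ha1: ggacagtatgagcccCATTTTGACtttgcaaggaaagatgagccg
P4ha2: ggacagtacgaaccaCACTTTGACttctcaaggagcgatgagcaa
Kdm4b and Kdm6b carry the glutamate form of the pair and the other 9 the aspartate form. The capitals are identical in Kdm7a and Phf8, 2 related demethylases whose mRNAs moved in opposite directions in these samples. Phf2, the third gene of that family and not shown, has the same capitals. Plod1 and Plod3 also share theirs. The stretches lie at chr6:83373203-83373247 (minus strand) for Tet3, chr17:56355980-56356024 (plus) for Kdm4b, chr6:39170139-39170183 (minus) for Kdm7a, chrX:151554261-151554305 (plus) for Phf8 and chr5:114124194-114124238 (minus) for Alkbh2. Those of the lysyl hydroxylases lie at chr4:147913253-147913297 (minus) for Plod1, chr9:92606812-92606856 (plus) for Plod2 and chr5:136994981-136995025 (plus) for Plod3. In Kdm6b (chr11:69401346-69401527, minus), P4ha1 (chr10:59365310-59367300, plus) and P4ha2 (chr11:54125784-54126357, plus) the stretch is split over 2 coding exons by an intron within these bounds.

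Depth was 25252839 to 30650624 reads assigned to genes per sample, at which 3 reads on a 2 kb gene equal 0.0489 to 0.0594 FPKM, counting error alone considered. Measured members had between 70 reads (Kdm8 in knockout replicate 3) and 6208 reads (Plod1 in control replicate 1). Tfrc was lower in all knockout samples, at 12.1 ± 1.08 FPKM (SD, n = 3) in control and 8.29 ± 1.20 FPKM (SD, n = 3) in knockout tissue, and the value also counts reads from cells other than adipocytes. Fth1, the heavy chain of the iron store ferritin, fell by 0.85 on the log2 scale, from 4370 ± 676 to 2421 ± 253 FPKM (SD, n = 3; limma adjusted p 0.0108). The tissue's defining fat cell markers were present: the summed level of 10 mature adipocyte genes was 6967 to 10087 FPKM in control and 17862 to 23392 FPKM in knockout samples, with 9 of 10 called higher and Adipoq, which encodes adiponectin, at 384 ± 98.9 and 1464 ± 356 FPKM (SD, n = 3). The 10 macrophage genes summed to 4128 to 4985 FPKM in control and 917 to 2111 FPKM in knockout samples, with 9 called lower and Adgre1, the F4/80 antigen, at 207 ± 15.9 and 73.1 ± 33.2 FPKM (SD, n = 3). Of the other lists, all 6 endothelial, 4 of 5 smooth muscle and 3 of 4 mesothelial markers were called higher, 3 of 4 mast cell markers, 1 of 8 fibroblast markers and 1 of 2 measured neutrophil markers lower, and none of 5 T-cell and 4 B-cell markers was called. None of the 5 genes of the epididymal epithelium was measured, with sums of 0 to 0.0953 FPKM in control and 0 to 2.02 FPKM in knockout samples and Lcn5 at 0 in all 6. Knockout replicate 3 stood apart in these sums, with the lowest macrophage (917 FPKM against 1956 and 2111 in the other knockout samples) and the highest adipocyte (23392 FPKM against 17862 and 18546) and endothelial (299 FPKM against at most 253) levels. In bulk tissue fewer cells of a type and less RNA per cell cannot be told apart, and the part of these shifts in the members' values was not tested.

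Of the 34 measured members, 4 rose in the knockout (Kdm6b, Kdm4b, Phf8 and Alkbh2), 4 fell (Plod2, Kdm7a, Tet3 and Kdm3b) and 26 did not pass the test, which was limma on log2(FPKM + 0.5) with an adjusted p under 0.05 over all 14383 genes tested. The 8 called members were 23.5% of those measured, against 43.5% of all tested genes, of which 21.9% were called higher and 21.6% lower. The groups did not overlap for 12 members that were higher and 9 that were lower in the knockout, against 60.1% of all tested genes. Changes were small: the log2 fold changes ran from −0.80 for Plod2 to 0.69 for Kdm6b. No member passed 1 in either direction, while 1489 of all tested genes (10.4%) did. The median size of change was 0.21 for the members and 0.31 for all tested genes, and the signed medians were −0.06 and −0.03. Members were measured with a median standard error of 0.10, against 0.12 for all tested genes.

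Per length, the most abundant members were the collagen lysyl hydroxylases Plod3 and Plod1, with means over all 6 samples of 53.3 and 47.5 FPKM, and their control means of 51.2 ± 1.67 and 51.2 ± 2.27 FPKM (SD, n = 3) did not differ beyond their spread. In knockout tissue Plod3 stood above Plod1, at 55.4 ± 1.17 and 43.8 ± 2.77 FPKM (SD, n = 3). Asph (25.0 FPKM), Alkbh5 (20.4 FPKM) and P4ha1 (17.9 FPKM) followed, and the SDs of the latter pair overlapped in both groups. Kdm4a, Fto and Alkbh6 came next at 15.1, 14.5 and 14.4 FPKM. The lowest measured members were Alkbh1 (3.32 FPKM), Alkbh8 (2.43 FPKM) and Kdm8 (1.38 FPKM). The members' median level of 8.49 FPKM was close to that of all tested genes, 7.15 FPKM.

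**Figure D1:**
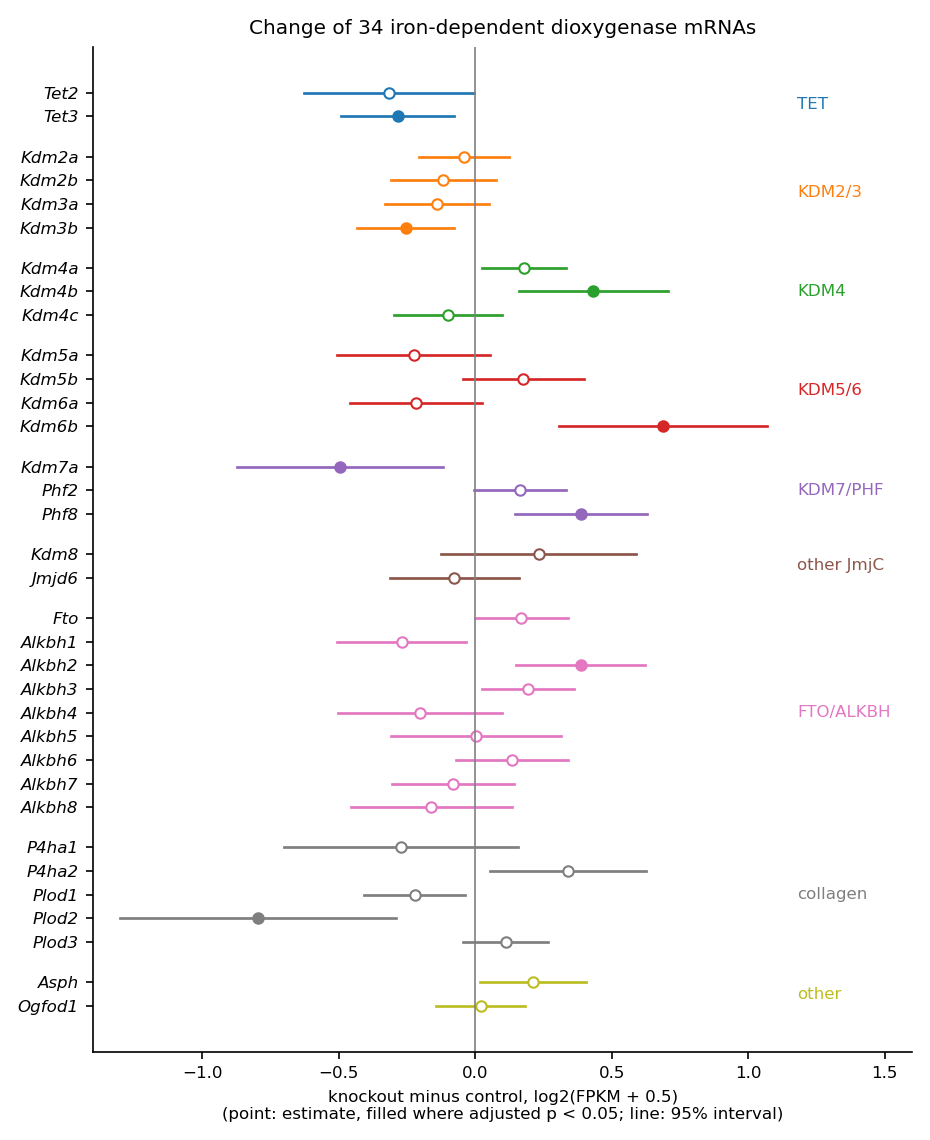
Log2 fold change, knockout minus control on the log2(FPKM + 0.5) scale, of the 34 measured members (rows, coloured by family); points are limma estimates, lines 95% confidence intervals, and filled points have an adjusted p under 0.05. The 8 filled points lie on both sides of 0, from Plod2 at −0.80 to Kdm6b at 0.69, and filled points of both directions occur within the KDM7/PHF family.

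The TET enzymes oxidise 5-methylcytosine as the first step of active DNA demethylation. Tet3 (chromosome 6, 83362373 to 83459084, minus strand, mm10) fell, with 13.0, 15.6 and 13.7 FPKM in control and 11.6, 11.8 and 10.8 FPKM in knockout tissue, values here and below being in the order of replicates 1, 2 and 3. Every knockout sample lay below every control sample, and Tet3 fell by 0.28 on the log2 scale (standard error 0.09, limma adjusted p 0.0369). Tet2, at 4.20, 4.33 and 4.07 FPKM in control tissue, was at 2.95, 4.05 and 2.92 FPKM in knockout tissue. Tet2 in knockout replicate 2 lay just below the lowest control sample and in the other knockout samples well below it, and the test was not passed (log2 fold change −0.32, standard error 0.13, limma adjusted p 0.0901). Without knockout replicate 2 the change of Tet2 was −0.45 with a limma adjusted p of 0.0192, in a range of 0.0192 to 0.211 over the alternatives. On the other side of the balance, of 5 DNA methylation genes 3 (60%) were called lower, and none higher, with a list median of −0.89. Of all tested genes 21.6% were called lower. These 3 were the maintenance methyltransferase Dnmt1 (16.6 ± 0.78 to 8.82 ± 1.55 FPKM, SD, n = 3), its partner Uhrf1 (log2 fold change −1.09) and the de novo methyltransferase Dnmt3a (−1.03). The macrophage list, lower in the same samples, had a median of −1.26, and its part in these 3 changes was not tested.

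The 14 histone demethylases of the KDM2 to KDM7 families split, with 3 called higher, 2 lower and a median of −0.07. Kdm6b, which removes the Polycomb mark from histone H3, rose most of all members. Kdm6b stood at 5.96, 6.93 and 6.31 FPKM in control and at 9.13, 9.46 and 13.8 FPKM in knockout tissue (chromosome 11, 69398508 to 69413675, minus strand). The groups lay apart and knockout replicate 3 was the highest sample, so that the means were 6.40 ± 0.491 and 10.8 ± 2.58 FPKM (SD, n = 3), a ratio of 1.68 and a log2 fold change of 0.69 (standard error 0.16, limma adjusted p 0.0151). Without knockout replicate 3, the library with the lowest macrophage and highest adipocyte sums, the fold change was 0.51. The part of these markers in the change of Kdm6b was not tested. Kdm6a, the X-linked enzyme for the same mark, was at 4.35, 4.03 and 4.40 FPKM in control and 3.58, 4.0 and 3.22 FPKM in knockout tissue. All knockout samples of Kdm6a were below the controls, barely so in replicate 2, and the change of −0.22 (standard error 0.10) was not called (limma adjusted p 0.121).

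Among the KDM4 enzymes, which remove trimethyl marks from histone H3, Kdm4b rose from 7.08, 7.25 and 6.77 FPKM in control to 9.51, 8.35 and 11.3 FPKM in knockout tissue (chromosome 17, 56326062 to 56402870, plus strand). The control samples of Kdm4b were close together and the knockout samples were spread above them, a log2 fold change of 0.43 (standard error 0.11, limma adjusted p 0.0230). Kdm4a, the most abundant histone demethylase of the list at 14.2 ± 0.306 FPKM in control and 16.1 ± 0.645 FPKM in knockout tissue (SD, n = 3), had groups that did not overlap and was not called (0.18, standard error 0.06, limma adjusted p 0.0621). Kdm4c was at 5.46 ± 0.337 and 5.06 ± 0.257 FPKM (SD, n = 3) with overlapping groups.

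In the KDM7 and PHF group, whose proteins read an active promoter mark with a PHD finger and remove repressive methyl groups, both directions occurred. Phf8 (chromosome X, 151520672 to 151633859, plus strand) rose, from 9.85, 7.73 and 8.03 FPKM in control to 10.9, 11.3 and 11.6 FPKM in knockout tissue. Control replicate 1 was the highest control and still below every knockout sample, and the log2 fold change was 0.39 (standard error 0.10, limma adjusted p 0.0221). Kdm7a (chromosome 6, 39136623 to 39206789, minus strand) fell, from 6.51, 6.17 and 6.06 FPKM in control to 4.01, 5.60 and 3.47 FPKM in knockout tissue. Knockout replicate 2 was the sample nearest the controls, and Kdm7a fell by 0.50 (standard error 0.16, limma adjusted p 0.0424). The third gene of the group, Phf2, went from 11.3 ± 0.659 to 12.7 ± 0.348 FPKM (SD, n = 3), with groups that did not overlap and a limma adjusted p of 0.101.

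The KDM2 and KDM3 enzymes, which demethylate histone H3 at CpG islands and at repressed genes, all had fold changes below 0, with a median of −0.13 and 1 of 4 called; without control replicate 2 that of Kdm2a was above 0. The called gene was Kdm3b, at 11.5, 11.9 and 11.3 FPKM in control and 10.1, 9.77 and 8.87 FPKM in knockout tissue. The control samples of Kdm3b differed little from each other and every knockout sample was lower, and Kdm3b fell by 0.26 (standard error 0.08, limma adjusted p 0.0321). Kdm3a, known in adipose tissue for its part in energy balance, was at 7.57, 8.20 and 7.17 FPKM in control and 7.23, 6.70 and 6.73 FPKM in knockout tissue, with overlapping groups and a limma adjusted p of 0.195. Kdm2a (12.6 ± 0.765 and 12.2 ± 0.0535 FPKM, SD, n = 3) and Kdm2b (5.72 ± 0.222 and 5.24 ± 0.321 FPKM, SD, n = 3) were not called either.

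The KDM5 enzymes remove the methyl mark of active promoters. Kdm5a was at 5.52, 5.25 and 4.99 FPKM in control and 3.97, 5.26 and 4.10 FPKM in knockout tissue. As with Tet2 and Kdm7a, knockout replicate 2 of Kdm5a lay near the controls and the other knockout samples lay below, so the groups overlapped and the change of −0.23 was not called (limma adjusted p 0.159, and 0.0345 without knockout replicate 2, in a range of 0.0345 to 0.353 over the alternatives). Kdm5b was at 4.02 ± 0.0801 and 4.62 ± 0.451 FPKM (SD, n = 3), higher in each knockout sample and not called. Of the JmjC proteins outside these families, Kdm8, the least abundant measured member, was at 1.16, 1.22 and 1.28 FPKM in control and 1.68, 1.78 and 1.16 FPKM in knockout tissue. Knockout replicate 3 of Kdm8 was as low as the lowest control, and the limma adjusted p was 0.249, against 0.0443 without that library and a range of 0.0443 to 0.50 over the alternatives. Jmjd6, a lysyl hydroxylase of nuclear proteins, had overlapping groups (5.10 ± 0.512 and 4.79 ± 0.314 FPKM, SD, n = 3). Of 19 histone lysine methyltransferases, the opposing enzymes, 1 was called higher and 5 lower (31.6% in all), with a median of −0.28. Of all tested genes 43.5% were called, and 21.6% were called lower. The count lower was 2 without control replicate 2 or 3. Those called lower included the Polycomb enzyme Ezh2 (5.54 ± 0.269 to 3.64 ± 0.215 FPKM, SD, n = 3), Dot1l (log2 fold change −0.48), Nsd2 (−0.49) and Setdb1 (−0.47). The macrophage markers fell in the same samples, and their part in these values was not tested.

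**Figure D2:**
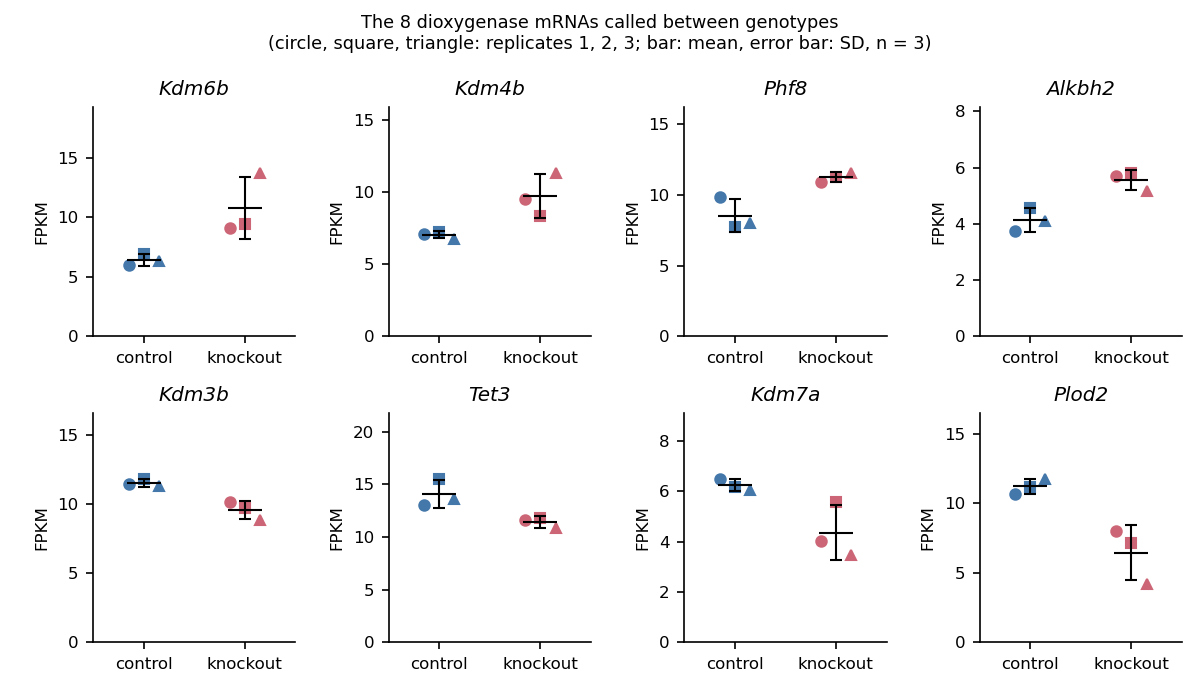
FPKM per sample of the 8 members that passed the test, with control samples in blue and knockout samples in red; symbols stand for replicates 1 (circle), 2 (square) and 3 (triangle), bars for means and error bars for the SD of n = 3. No control sample overlaps a knockout sample in any panel, and knockout replicate 3 lies farthest from the control mean in 7 of the 8 panels, the exception being Alkbh2.

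The FTO and ALKBH proteins mostly demethylate nucleic acids, and 1 of 9 was called, with a median fold change of 0.00. Alkbh2, which repairs alkylated bases in double-stranded DNA, rose from 3.74, 4.58 and 4.11 FPKM in control to 5.69, 5.82 and 5.17 FPKM in knockout tissue (chromosome 5, 114123926 to 114128218, minus strand). The groups of Alkbh2 lay apart, with a log2 fold change of 0.39 (standard error 0.10, limma adjusted p 0.0207). However, 29.5% of its exon bases also lie in exons of Usp30 on the opposite strand, whose mean level was 7.66 FPKM, and without a stated strand setting reads of the 2 genes cannot be told apart. Alkbh3, which repairs single-stranded nucleic acids, was at 9.48 ± 0.456 and 10.9 ± 0.402 FPKM (SD, n = 3), with groups that did not overlap and a limma adjusted p of 0.0647.

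Fto and Alkbh5 are the erasers of the methyl mark on adenosine in mRNA, and Fto is a locus known from human obesity genetics. Fto was at 13.7, 13.6 and 13.7 FPKM in control and 15.4, 14.4 and 16.5 FPKM in knockout tissue. The control samples of Fto were nearly equal and each knockout sample was higher, but the change of 0.17 (standard error 0.07) was not called (limma adjusted p 0.0973). Alkbh5, the most abundant of the 9, was at 18.1, 22.7 and 20.3 FPKM in control and 17.9, 19.5 and 24.1 FPKM in knockout tissue. The samples of Alkbh5 intermingled, with a fold change of 0.00 and a 95% confidence interval from −0.31 to 0.31. Of 13 writers and readers of the same mark, 4 (30.8%) were called lower and none higher, with a median of −0.21, where 21.6% of all tested genes were called lower. The count was 1 or 2 without any one of the libraries other than knockout replicate 2. The macrophage markers fell in the same samples, and their part in these values was not tested. The genes called were the reader Igf2bp2 (15.2 ± 1.06 to 4.81 ± 2.23 FPKM, SD, n = 3), the writer subunit Wtap (log2 fold change −0.32) and the readers Ythdf2 and Ythdf3 (−0.22 each). Ythdf2 passed in 0 and Ythdf3 in 1 of the 6 fits with 1 library left out (limma adjusted p 0.0509 to 0.107 and 0.0357 to 0.124).

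Alkbh1, which acts on DNA and on mitochondrial and cytosolic tRNA, was at 3.48, 3.79 and 3.75 FPKM in control and 3.16, 3.09 and 2.65 FPKM in knockout tissue. All 3 knockout samples of Alkbh1 were lower, with a change of −0.27 (standard error 0.10, limma adjusted p 0.0650). Alkbh4, which demethylates actin, was at 3.67 ± 0.327 and 3.13 ± 0.475 FPKM (SD, n = 3). Alkbh8, which completes a modification of the tRNA wobble base, was at 2.59 ± 0.356 and 2.26 ± 0.206 FPKM (SD, n = 3). Alkbh6 (13.7 ± 1.37 and 15.1 ± 0.406 FPKM, SD, n = 3) and the mitochondrial Alkbh7 (8.06 ± 0.185 and 7.62 ± 0.849 FPKM, SD, n = 3) had overlapping groups, as did Alkbh4 and Alkbh8.

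Collagen hydroxylases held both the most abundant members and the member that fell most. Plod2, the lysyl hydroxylase of collagen telopeptides, whose products form stable crosslinks in fibrotic tissue, was at 10.7, 11.2 and 11.8 FPKM in control and 7.98, 7.16 and 4.23 FPKM in knockout tissue (chromosome 9, 92542223 to 92608428, plus strand). Every knockout sample of Plod2 was below every control and knockout replicate 3 was the lowest. The means were 11.2 ± 0.539 and 6.45 ± 1.97 FPKM (SD, n = 3), a ratio of 0.575, and Plod2 fell by 0.80 (standard error 0.21, 95% confidence interval −1.30 to −0.29, limma adjusted p 0.0237). Without knockout replicate 3 the change was −0.54 with a limma adjusted p of 0.00268, in a range of 0.00268 to 0.0790 over the alternatives. In that library the summed level of 8 fibroblast and progenitor genes was 847 FPKM, against 1207 to 1306 FPKM in the other knockout and 1334 to 1416 FPKM in the control samples, beside its low macrophage and high adipocyte and endothelial sums. The part of these markers in the Plod2 values was not tested.

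The other lysyl hydroxylases of collagen differed from Plod2 in level and in size of change. Plod1, the enzyme of the helical region, was at 51.9, 53.0 and 48.6 FPKM in control and 46.4, 44.1 and 40.9 FPKM in knockout tissue. All knockout samples of Plod1 were below the controls, and the change of −0.22 (standard error 0.08) missed the threshold (limma adjusted p 0.0545); with median-of-ratios scaling it passed, in a range of 0.0374 to 0.161 over the alternatives. Plod3, which also transfers sugars to hydroxylysine, was at 49.3, 51.8 and 52.5 FPKM in control and 55.5, 54.1 and 56.5 FPKM in knockout tissue. Each knockout sample of Plod3 was higher than every control, by a log2 fold change of 0.11 (95% confidence interval −0.05 to 0.27, limma adjusted p 0.209). Exons of Znhit1 on the opposite strand share 11.7% of the exon bases of Plod3. With a mean over all samples of 8.84 FPKM, Plod2 was per length the least abundant of the 3 in both groups.

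The prolyl 4-hydroxylases make the hydroxyproline that keeps the collagen helix stable at body temperature. P4ha1 was at 18.2, 19.9 and 20.1 FPKM in control and 19.2, 18.1 and 11.7 FPKM in knockout tissue. Only knockout replicate 3 of P4ha1 was clearly below the controls, the groups overlapped, and the change of −0.27 (standard error 0.18, limma adjusted p 0.258) was −0.06 without that library. P4ha2 was at 7.53, 7.44 and 9.36 FPKM in control and 11.7, 9.48 and 9.96 FPKM in knockout tissue. Every knockout sample of P4ha2 exceeded every control, narrowly in replicate 2, and the change of 0.34 (standard error 0.12) was not called (limma adjusted p 0.0571, 0.0449 without control replicate 3, in a range of 0.0449 to 0.171 over the alternatives). P4ha3, not measured by the rule, had 4 to 22 reads per sample.

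**Figure D3:**
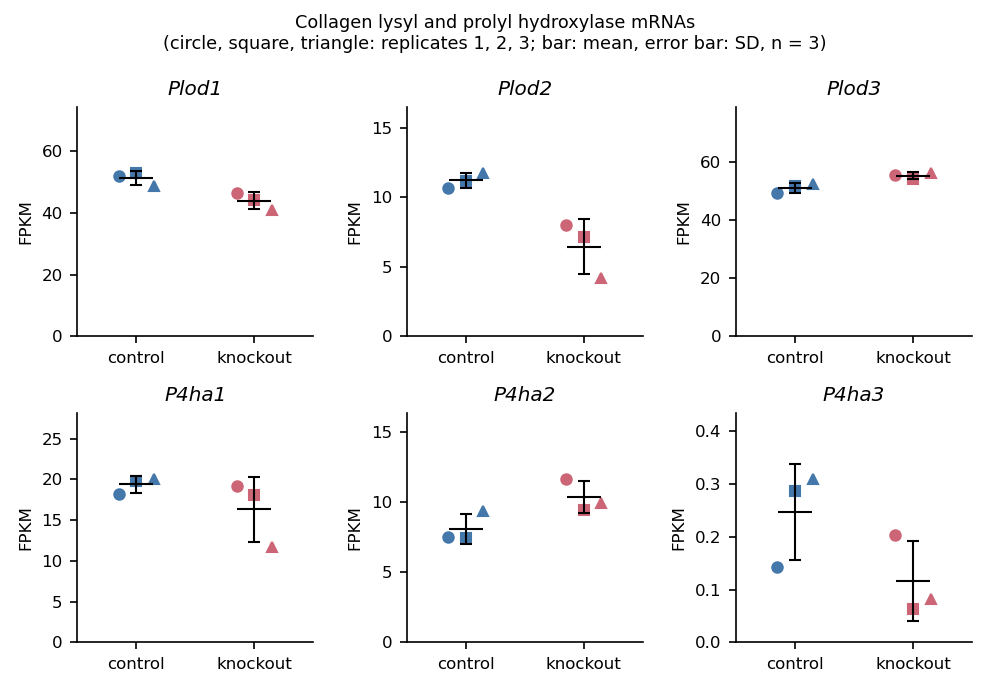
FPKM per sample of the 6 collagen hydroxylase genes, with control samples in blue and knockout samples in red; symbols stand for replicates 1 (circle), 2 (square) and 3 (triangle), bars for means and error bars for the SD of n = 3, and the vertical scales differ between panels. Among the 5 measured genes Plod2 shows the widest relative gap between the group means, P4ha1 has knockout replicate 1 within the control range, replicate 2 just below it and replicate 3 far below at 11.7 FPKM, and P4ha3 stays below 0.5 FPKM.

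Of 15 collagen chains, the substrates, 5 were called higher and 2 lower (46.7%, near the 43.5% of all tested genes), with a median of 0.12. With 1 library left out 4 to 7 were called higher and 0 to 4 lower, the count lower being 0 without any one control sample and 4 without knockout replicate 1. Those with the smallest p were Col18a1 (48.2 ± 2.08 to 72.5 ± 2.95 FPKM, SD, n = 3), Col4a2 (log2 fold change 0.62), Col5a3 (1.03) and Col15a1 (0.67). All 6 endothelial and 4 of 5 smooth muscle markers rose in the same samples, and their part in these values was not tested. The fibrillar Col1a1 had a change of −0.89 (limma adjusted p 0.0466), which passed in 2 of the 6 fits with 1 library left out and ran there from −1.11 without knockout replicate 1 to −0.55 without knockout replicate 3 (limma adjusted p 0.0161 to 0.141). Of 14 measured folding and crosslinking partners 2 were called higher and 2 lower (28.6%), with a median of −0.24; the count lower was 7 without knockout replicate 1, 5 without knockout replicate 3 and 1 without any one of the other libraries. The hydroxylysine galactosyltransferase Colgalt1 fell by 0.78, from 81.8 ± 5.58 to 48.0 ± 8.60 FPKM (SD, n = 3). Fkbp10, a chaperone known to act with Plod2 on telopeptides, fell by 0.47 (limma adjusted p 0.0381). It was called in 2 of 6 fits with 1 library left out. The collagen chaperone Serpinh1 (0.52) and the crosslinking oxidase Loxl4 (0.57) rose, and were called in 4 and 6 of these 6 fits.

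P4ha1 and P4ha2 are known targets of the hypoxia-inducible factor, and ACGTG is a form of its core motif. Only this form was searched, on both strands (CACGT being its reverse complement). The search covered the 250 bases before each start in the RefSeq promoter table of GRCm38.p6. These windows are shown here for P4ha1 and P4ha2 with the matches in capitals.
P4ha1: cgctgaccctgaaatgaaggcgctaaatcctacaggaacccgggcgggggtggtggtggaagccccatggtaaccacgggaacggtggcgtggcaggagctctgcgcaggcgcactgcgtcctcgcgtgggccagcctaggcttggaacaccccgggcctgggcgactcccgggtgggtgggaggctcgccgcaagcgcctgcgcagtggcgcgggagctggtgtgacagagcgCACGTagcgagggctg
P4ha2: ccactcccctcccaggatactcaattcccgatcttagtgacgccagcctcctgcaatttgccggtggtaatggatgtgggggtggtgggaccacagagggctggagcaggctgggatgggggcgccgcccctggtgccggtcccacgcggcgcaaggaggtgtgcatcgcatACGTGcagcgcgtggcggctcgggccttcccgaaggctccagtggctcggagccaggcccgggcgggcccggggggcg
The windows lie at chr10:59323046-59323295 (plus strand) and chr11:54100674-54100923 (plus strand). In the annotation of the FPKM values P4ha2 spans chr11:54100095-54131665, so its window lies inside that gene, before a later RefSeq start. Each holds 1 match, and a match is a description of the letters, not a binding site. Of the 29 members with a promoter entry, 13 (44.8%) had a match in at least 1 window, against 4998 of 27025 genes (18.5%). The member count left out the chromosome of Kdm3b, and the count over all genes left out no chromosome. Of the other called members, Kdm4b, Kdm6b and Plod2 had no window. The members' windows also held more CG pairs, with a median of 18 against 6, and the motif itself contains one. The windows of Kdm3a held no ACGTG on either strand, and other forms of the core motif were not searched.

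The remaining hydroxylases were not called. Asph, which hydroxylates aspartate and asparagine in EGF-like domains and whose gene also encodes shorter proteins without the catalytic domain, was at 25.1, 23.2 and 21.1 FPKM in control and 27.0, 25.8 and 27.7 FPKM in knockout tissue. All knockout samples of Asph lay above the controls, with a change of 0.21 (standard error 0.08, limma adjusted p 0.0747). Ogfod1, which hydroxylates a ribosomal protein, was at 6.23 ± 0.134 and 6.32 ± 0.107 FPKM (SD, n = 3), a change of 0.02 with a 95% confidence interval from −0.14 to 0.18.

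Other enzymes of the same chemistry were counted beside the members, from a separate list of 28 genes. Of 24 measured other iron-dependent dioxygenases 7 were called higher and 2 lower, with a median of 0.17. This was 37.5%, against 43.5% of all tested genes called and 21.9% called higher. With 1 library left out 5 to 7 were called higher and 0 to 3 lower. Called genes with the smallest p included Hr, a histone demethylase and nuclear receptor corepressor (4.71 ± 0.537 to 11.4 ± 2.04 FPKM, SD, n = 3). Another was Phyh, the peroxisomal phytanoyl-CoA hydroxylase (30.3 ± 2.37 to 74.1 ± 22.7 FPKM, SD, n = 3). Egln1, the prolyl hydroxylase that senses oxygen, rose by 0.55 on the log2 scale (standard error 0.09, limma adjusted p 0.00535), and Jmjd8 by 0.83. Of 20 enzymes that make or use 2-oxoglutarate, succinate, fumarate or 2-hydroxyglutarate 13 were called higher and 1 lower (70.0%), with a median of 0.51 and 6 and 7 higher without control replicate 2 and 3, among them Psat1 (39.9 ± 4.37 to 78.5 ± 5.0 FPKM, SD, n = 3), Idh3a (log2 fold change 0.91), Idh3g (0.67) and D2hgdh (0.65). Many of these enzymes are mitochondrial, and the summed adipocyte markers rose in the same samples; their part in this list was not tested.

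Each of the 8 calls was lost in some of the 6 fits that left out 1 library, while the directions of change stayed the same in all 6. These fits have fewer samples. Over all tested genes they called 23.4% (without control replicate 2) to 41.4% (without knockout replicate 3), against 43.5% with all samples. A call could be lost without a smaller change: Kdm3b was at −0.27 without control replicate 3 (limma adjusted p 0.0848), against −0.26 with all samples. Kdm6b missed the threshold without control replicate 1 or 3, and its limma adjusted p ran from 0.00420 to 0.0554 over 13 alternatives. Kdm4b (0.0167 to 0.0815) and Plod2 (0.00268 to 0.0790) missed it without any one of the control samples. Phf8 (0.0138 to 0.0827) missed it without control replicate 2 or 3 or knockout replicate 2, and Alkbh2 (0.0114 to 0.0707) without control replicate 1 or 3 or knockout replicate 1 or 2. Kdm3b (0.0204 to 0.105) passed only without knockout replicate 1, Tet3 (0.0229 to 0.110) only without control replicate 1 and Kdm7a (0.0123 to 0.113) only without knockout replicate 2; these 3 also missed it when genes of low level were tested too. Knockout replicate 3 was the sample farthest from its group's median for 17 of the 34 members, against 7 and 10 for the other knockout samples, and it is also the library that stood apart in the cell type markers. The part of the marker shifts in the members' spread was not tested.

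**Figure D4:**
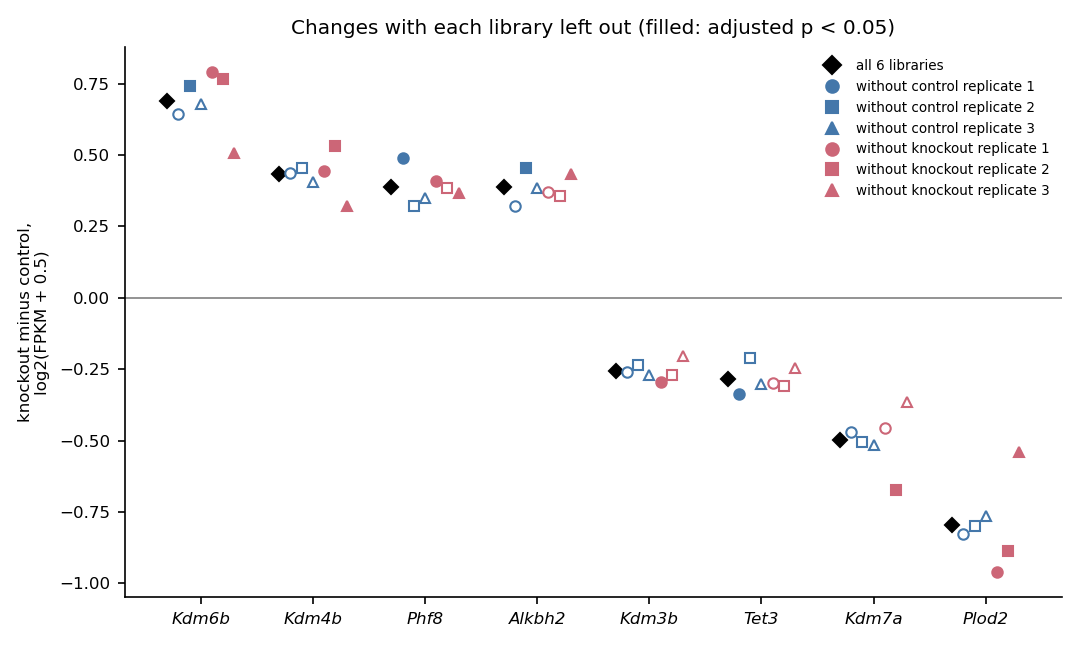
Log2 fold change of the 8 called members, on the log2(FPKM + 0.5) scale, with all 6 samples (black diamonds) and with each sample left out (blue for control, red for knockout; circle, square and triangle for replicates 1, 2 and 3); filled symbols have a limma adjusted p under 0.05. All symbols of a gene stay on one side of 0, and the widest span is that of Plod2, from −0.96 without knockout replicate 1 to −0.54 without knockout replicate 3.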

How the data were processed

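Per the labels' protocols, Trizol was used to extract total RNA from 6 epididymal fat samples, and the libraries were NEBNext Ultra RNA libraries. The submitters' processing notes name CASAVA, FastQC, STAR 2.5, HTSeq 0.6.1 and mm10. The tools' roles, any filters, the annotation release and the strand setting were not given in the sources used here. The authors deposited FPKM per gene with gene lengths. Values in each sample were whole multiples of 1 read within 0.01 (100% of values), which gave the reads per gene; limma-voom on these reads was an alternative.

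The 14383 genes that reached 0.5 FPKM in 3 or more samples were fitted as log2(FPKM + 0.5) with limma 3.58.1 (R 4.3.3, statmod 1.5.0), trend and robust moderation, 1 genotype coefficient, two-sided tests and Benjamini-Hochberg adjustment. A gene is called at an adjusted p under 0.05. Fold changes on this scale understate those of low genes. The script was tested on simulated data. Tables were made with Python 3.11.15 and pandas 2.3.3.

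The members and gene lists were chosen with earlier results of these data known. Named are all measured members, and of each other list up to 4 called genes by smallest p, or else its 2 most abundant. Tfrc, Fth1, Adipoq and Adgre1 were to be named in any case. Examples from these are given; Col1a1 was named after its value was seen. Of 238 list entries 237 were found, 8 of them by identifier under an older name. Alternatives were pseudocounts of 0.1 and 1, a filter at 1 FPKM, no filter, median-of-ratios scaling, the replicate number as a block and each sample left out. Coding sequences came from GENCODE M21 (GRCm38, the build of mm10).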

Additional observations from a re-analysis of the deposited data

How the results depend on the processing

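With all samples 4 members were called higher and 4 lower. Fits that left out 1 library called 1 to 5 members higher and 0 to 4 lower, not always the same ones. Over all genes they called 1897 to 3063 higher and 1324 to 3064 lower. Without control replicate 1 there were 1 member higher and 1 lower, and without control replicate 2 there were 2 and 0. Without control replicate 3 there were 1 and 0, the 1 being P4ha2, which was not called with all samples. Without knockout replicate 2 the 4 called lower were Kdm5a, Kdm7a, Plod2 and Tet2, of which Kdm5a and Tet2 were not called with all samples. Without a filter on low values, with 25206 genes tested, 1 member was called lower (Plod2) in place of 4. With 1 library left out, the change of Kdm2a ran from −0.079 to 0.0037 (above 0 without control replicate 2), that of Alkbh5 from −0.12 to 0.091 (below 0 without control replicate 1, at −0.077, or knockout replicate 3) and that of Alkbh7 from −0.15 to 0.0030 (above 0 without knockout replicate 3). None of these was called, and the cause was not tested. Pseudocounts, the filter at 1 FPKM and limma-voom changed no member's call or direction, and median-of-ratios scaling added Plod1.

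Same-numbered deviations from the group means correlated at −0.24, 0.03 and −0.18 across 14383 genes, and differently numbered ones at −0.08 to 0.23. With 3 samples per group the deviations within a group are tied together, so these values cannot decide whether the replicate numbers pair the samples. With the replicate number as a block 1 member was called higher (Kdm6b) and 1 lower (Plod2), and over all genes 2270 and 2311. Tet1 and P4ha3 were left out for their low level, with at most 39 and 22 reads in a sample.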

Other observations

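Genes known to be induced by the hypoxia-inducible factor, whose stability Egln1 controls, were called in both directions: of 14, 8 higher and 4 lower, with a median log2 fold change of 0.41 (5 to 9 higher and 2 to 4 lower with 1 library left out). The share called was 85.7%, against 43.5% of all tested genes. Vegfa, the vascular growth factor, went from 19.5 ± 3.85 FPKM in control to 92.7 ± 24.5 FPKM in knockout tissue (SD, n = 3), Adm from 4.27 ± 0.359 to 9.32 ± 0.764 FPKM (SD, n = 3) and Bnip3 from 84.4 ± 19.4 to 218 ± 26.1 FPKM (SD, n = 3). The glucose transporter Slc2a1 fell by 1.01 (limma adjusted p 0.00559). The endothelial and adipocyte markers rose and the macrophage markers fell in the same samples, and their part in these values was not tested.

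In the carnitine pathway, which Tmlhe starts, all 5 measured genes of 7 were called, 3 higher and 2 lower, where 43.5% of all tested genes were called. However, without control replicate 2 only 1 was called higher and none lower, and without control replicate 3 there was 1 in each direction. The carnitine importer Slc22a5 went from 10.4 ± 0.704 to 14.0 ± 0.696 FPKM (SD, n = 3) and the acetyltransferase Crat rose by 0.43 on the log2 scale. Aldh9a1, an enzyme of carnitine synthesis, went from 50.5 ± 1.28 to 39.2 ± 3.26 FPKM (SD, n = 3), and the mitochondrial gatekeeper Cpt1a fell by 0.61 (limma adjusted p 0.0137). Bbox1, the dioxygenase that completes carnitine synthesis, was not measured by the same rule as the members.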
